A study of Mus musculus with 8 samples.

Results

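The Cyp2c cytochrome P450 genes are a family of similar genes that lie side by side on mouse chromosome 19. The members described here are the 10 genes *Cyp2c38*, *Cyp2c29*, *Cyp2c37*, *Cyp2c39*, *Cyp2c40*, *Cyp2c44*, *Cyp2c50*, *Cyp2c54*, *Cyp2c68* and *Cyp2c70*, out of 46078 gene identifiers in the deposited counts. The family was chosen from the comparison of genotypes in these same livers, in which DESeq2 gave *Cyp2c38* an adjusted *P* of 0.00149. The fold changes of the members are therefore a description and no test of them is offered. Of the 10, 9 were found by their symbol in the GENCODE annotation, and *Cyp2c44* by the RefSeq synonym of the gene that GENCODE calls *Cyp2c23* (ENSMUSG00000025197). The table holds 6 other genes whose symbol starts with Cyp2c, and these are given beside the members.

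RNA-seq was carried out on whole livers of 8 mice, 4 LWT and 4 LΔRbfox2, with 1 library per liver. LWT mice carried the floxed *Rbfox2* alleles (Rbfox2 LoxP/LoxP) without Cre and are labelled wild-type, whereas LΔRbfox2 mice carried the same alleles with albumin-Cre, which deletes the gene in hepatocytes, and are labelled Rbfox2 knockout. RBFOX2 is an RNA-binding protein that regulates alternative splicing. Other liver cells of LΔRbfox2 mice keep the gene, since the albumin promoter drives the Cre in hepatocytes. All mice were given the control diet (CD, chow in the labels) from 8 weeks of age, for 12 weeks according to the labels. The methods state that males were used unless indicated otherwise, and that mice stayed on their diets for longer than the labels give. Livers were taken after 16 h of fasting. Nothing in the labels says how the mice were related, and p-values judge a difference between genotypes against the spread between these livers.

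P450 enzymes of the Cyp2c family sit in the membrane of the endoplasmic reticulum, where they use electrons from P450 oxidoreductase and a haem group to add oxygen to their substrates. In liver they act on drugs and steroids and on arachidonic acid, which they turn into epoxyeicosatrienoic acids (EETs) and hydroxy acids. Many are expressed most strongly in hepatocytes around the central vein, and the nuclear receptors CAR and PXR, which sense foreign chemicals, and the sex-dependent rhythm of growth hormone are known to set their levels.

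On GRCm38, 9 of the members lie in a run from chr19:39269405-40187333, and *Cyp2c44* lies apart at chr19:44005022-44029208 on the minus strand. *Cyp2c29* (chr19:39269405-39330713, plus strand) opens the run, followed by *Cyp2c38* (chr19:39389556-39463075, minus strand) and *Cyp2c39* (chr19:39510862-39568529, plus strand). Next come *Cyp2c68* (chr19:39688834-39741054) and *Cyp2c40* (chr19:39767071-39812814), both on the minus strand, with the non-members *Cyp2c67* and *Cyp2c69* on either side of them. The run ends with *Cyp2c37* (chr19:39992424-40012243, plus strand), *Cyp2c54* (chr19:40037940-40073827, minus strand), *Cyp2c50* (chr19:40089688-40113950, plus strand) and *Cyp2c70* (chr19:40153353-40187333, minus strand). The pseudogene *Cyp2c53-ps* overlaps the annotated region of *Cyp2c29* on the same strand, and it had at most 4 counts in any liver.

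Coding sequences of the GENCODE transcripts fell into blocks of near copies. The coding sequence of *Cyp2c38* was identical to that of *Cyp2c39* at 94.22% of aligned bases, with a longest identical run of 98 bases, and *Cyp2c29* was identical to *Cyp2c39* at 89.46%. *Cyp2c37* and *Cyp2c50* were identical at 96.12%, and *Cyp2c54* and *Cyp2c50* at 95.24%. *Cyp2c68* was nearest to the non-member *Cyp2c67*, at 97.15%, and *Cyp2c40* to *Cyp2c68*, at 92.63%. Gaps count as differing in these shares. The coding sequence of *Cyp2c40* has 1560 bases against 1473 for *Cyp2c68*, and its bases without a partner lower its share. Of 1560 aligned columns 1445 were identical, so the 92.63% is not comparable with the shares of copies of equal length. *Cyp2c70* and *Cyp2c44* stood apart, and their nearest relative in the family reached 71.2% and 67.88%.

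The first 90 coding bases of *Cyp2c38* and of its relatives *Cyp2c39* and *Cyp2c29* are shown because only *Cyp2c38* of the 3 had values that did not overlap between the genotypes, and the differing bases are what a read must cover to tell the copies apart. They lie in exon 1 at chr19:39462965-39463054 (minus strand), chr19:39510871-39510960 (plus strand) and chr19:39287118-39287207 (plus strand) of GRCm38. Capitals mark the bases that differ from *Cyp2c38*, 8 in *Cyp2c39* and 13 in *Cyp2c29*.
Cyp2c38: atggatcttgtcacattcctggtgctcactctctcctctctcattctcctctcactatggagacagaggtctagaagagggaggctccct
Cyp2c39: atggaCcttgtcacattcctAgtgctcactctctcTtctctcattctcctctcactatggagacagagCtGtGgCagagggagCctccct
Cyp2c29: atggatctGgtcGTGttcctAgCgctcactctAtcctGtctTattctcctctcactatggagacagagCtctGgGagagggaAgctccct

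The same stretch of the block of *Cyp2c50*, *Cyp2c54* and *Cyp2c37* is shown because this block holds *Cyp2c50*, the member with the highest level per length in LWT livers. It lies in exon 1 at chr19:40089700-40089789 (plus strand), chr19:40073722-40073811 (minus strand) and chr19:39992440-39992529 (plus strand). Capitals mark the bases that differ from *Cyp2c50*, 6 in *Cyp2c54* and 2 in *Cyp2c37*.
Cyp2c50: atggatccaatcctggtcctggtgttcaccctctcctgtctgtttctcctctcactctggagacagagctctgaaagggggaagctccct
Cyp2c54: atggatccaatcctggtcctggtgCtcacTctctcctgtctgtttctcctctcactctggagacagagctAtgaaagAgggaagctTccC
Cyp2c37: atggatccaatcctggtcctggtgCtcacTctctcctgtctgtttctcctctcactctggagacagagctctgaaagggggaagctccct

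For the block of *Cyp2c68*, *Cyp2c67* and *Cyp2c40*, the last 90 coding bases are shown, because here *Cyp2c40* and *Cyp2c68* cannot be told apart at all. They lie in exon 9 on the minus strand at chr19:39689072-39689161, chr19:39609080-39609169 and chr19:39767309-39767398. Capitals mark the bases that differ from *Cyp2c68*, 1 in *Cyp2c67* and 0 in *Cyp2c40*.
Cyp2c68: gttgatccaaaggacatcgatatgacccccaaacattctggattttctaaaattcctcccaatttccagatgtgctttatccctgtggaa
Cyp2c67: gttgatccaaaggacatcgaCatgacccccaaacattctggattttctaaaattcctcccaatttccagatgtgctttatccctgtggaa
Cyp2c40: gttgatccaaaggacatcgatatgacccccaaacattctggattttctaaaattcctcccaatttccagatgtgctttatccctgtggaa

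**Figure D1:**
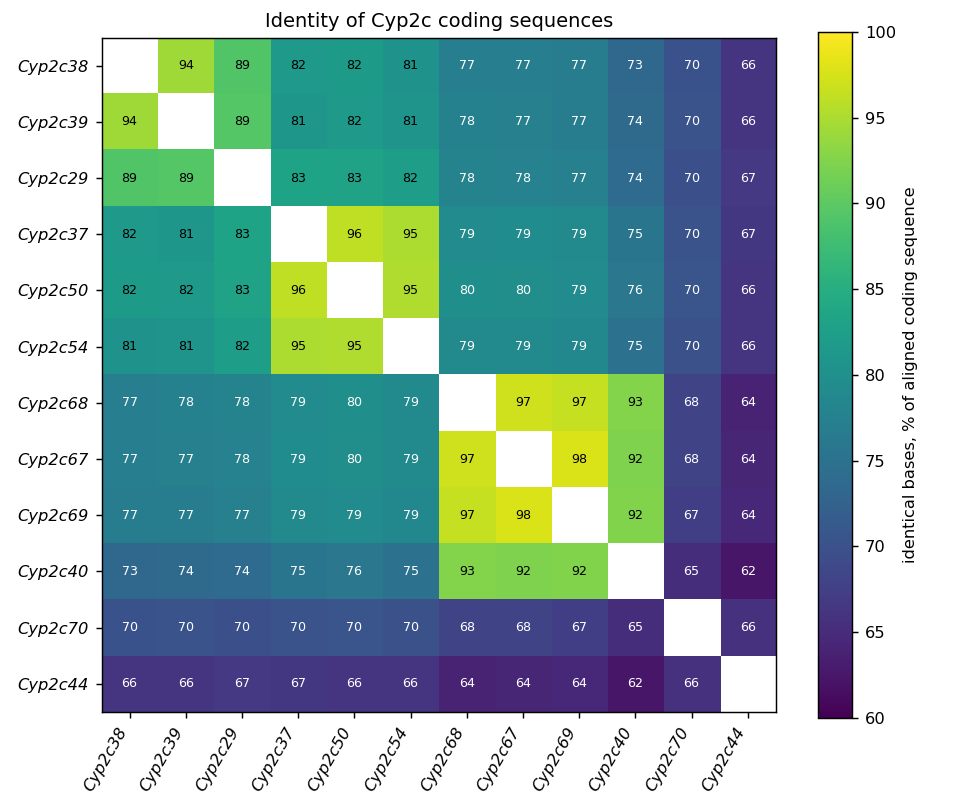
Identity of coding sequences between the 10 members and the non-members *Cyp2c67* and *Cyp2c69*. Each square gives the percentage of aligned columns that are identical, with gaps counted as differing (colour and rounded number, blank on the diagonal). Bright squares form 3 blocks, in which *Cyp2c38* and *Cyp2c39* reach 94.22% and *Cyp2c37* and *Cyp2c50* reach 96.12%, while *Cyp2c70* and *Cyp2c44* are dark throughout.

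Reads of 100 bases were counted, so 100-base windows of each member's longest coding transcript were searched for in the transcripts of other genes. No window of *Cyp2c38*, *Cyp2c29*, *Cyp2c39*, *Cyp2c70* or *Cyp2c44* was found in another gene. The share of windows found elsewhere was 4.7% for *Cyp2c37*, 7.59% for *Cyp2c54*, 9.4% for *Cyp2c50*, 19.82% for *Cyp2c68* and 44.13% for *Cyp2c40*. Counts of *Cyp2c40* and *Cyp2c68* are thus the least certain, because the sources used here do not give how reads that match several genes were counted. With 50-base windows, 7.45% of the windows of *Cyp2c38* were found elsewhere, most of them in *Cyp2c39*.

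Total counts per liver ranged from 37482458 to 56177588, and 13856 genes had enough counts to be tested. Counts below are given as CPM, that is, counts scaled by the library size after TMM normalization. *Rbfox2* was at 17.1, 10.4, 11.4 and 18.3 CPM in LWT livers 1 to 4 and at 4.61, 6.09, 2.24 and 3.19 CPM in LΔRbfox2 livers 1 to 4. The genotypes did not overlap, and LΔRbfox2 livers were lower as their labels state (*P* = 0.0286 in an exact permutation test of both sides, which cannot go lower for 4 livers against 4). LΔRbfox2 livers 3 and 4 stood apart from the other livers in their TMM factors, which were 0.724 and 0.776 against 1.02 to 1.14 in the others. The share of counts from major urinary protein (Mup) genes was 43.6% and 37.5% in them, 21.4% and 26.1% in LΔRbfox2 livers 1 and 2 and 24.7% to 37.1% in LWT livers, so that liver 4 was close to the highest LWT liver. The first principal component of log2 CPM, the axis of largest spread (54.1% of the variance), did not follow genotype alone. On it LWT livers 1 and 4 were at −59.4 and −54.6 and LΔRbfox2 liver 2 at −35.9. LΔRbfox2 livers 3 and 4 were at 46.7 and 56.0, and LWT liver 2 at 27.4. The members' fold changes are given with and without LΔRbfox2 livers 3 and 4.

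All 10 members passed the filter on low counts and were tested. With edgeR, 0 members and 0 of the 13856 genes tested (0.0%) had an adjusted *P* of at most 0.05. The deleted gene *Rbfox2* did not pass either, with a log2 fold change of −1.82 and an edgeR adjusted *P* of 0.504. A gene that did not pass is therefore not shown to be unchanged. At an unadjusted *P* under 0.05, 2 members (*Cyp2c38* and *Cyp2c40*) were higher in LΔRbfox2 livers and 0 lower, where 7.95% of all genes tested were higher and 1.83% lower. With DESeq2, *Cyp2c38* alone of the members passed an adjusted *P* of 0.05, as did 0.0168% of genes in the higher direction. The log2 fold change (LΔRbfox2 over LWT, edgeR) was above 0 for 9 members, where it was above 0 for 48.4% of genes tested. Its median was 0.49 over the members and −0.02 over all genes tested. With each library corrected for exon length and GC content, 6 members were above 0 and their median was 0.105, with library totals in place of TMM 6 and 0.229, and without LΔRbfox2 livers 3 and 4 it was 7 and 0.14. Under each of these 3 settings *Cyp2c38* was the 1 member with an unadjusted *P* under 0.05. Since the family was chosen from this contrast, nothing is read from these counts. A count for whole liver cannot tell fewer cells of a type from less RNA per cell.

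*Cyp2c38* showed the largest difference between genotypes of the members. It was at 61.3, 56.3, 54.6 and 28.4 CPM in LWT livers 1 to 4 and at 114, 121, 154 and 145 CPM in LΔRbfox2 livers 1 to 4. The 4 LΔRbfox2 livers lay close together, all above the highest LWT liver, and LWT liver 4 was the lowest. The mean was 50.2 ± 14.8 CPM (SD, n = 4) in LWT and 133 ± 19.2 CPM (SD, n = 4) in LΔRbfox2 livers, a ratio of 2.66. On the log2 scale, edgeR put the fold change at 1.41 (limma-voom standard error 0.25). It was 1.20 with LΔRbfox2 livers 3 and 4 left out, and the values still did not overlap. *Cyp2c38* was the only member whose values did not overlap, in the higher direction as for 1.05% of the genes tested. No member was lower without overlap, as 1.23% of the genes tested were.

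The nearest copy of *Cyp2c38*, *Cyp2c39*, encodes an enzyme known for the hydroxylation of retinoic acid. It was the lowest of the members, at 5.41, 5.14, 4.62 and 2.56 CPM in LWT livers and 3.04, 4.54, 8.93 and 4.09 CPM in LΔRbfox2 livers 1 to 4. The genotypes overlapped, and 1 LΔRbfox2 liver, liver 3, was above the LWT range. *Cyp2c29*, an epoxygenase that phenobarbital induces through CAR, was at 192, 285, 271 and 158 CPM in LWT livers and at 310, 197, 392 and 349 CPM in LΔRbfox2 livers. LΔRbfox2 livers 1, 3 and 4 were above all LWT livers and liver 2 within their range. The log2 fold change was 0.46 ± 0.27 for *Cyp2c29* and 0.21 ± 0.35 for *Cyp2c39* (edgeR estimate, limma-voom standard error). Without LΔRbfox2 livers 3 and 4 it was 0.13 for *Cyp2c29* and −0.25 for *Cyp2c39*, and with the length and GC correction 0.18 and −0.19. Without LΔRbfox2 liver 3 alone it was 0.30 for *Cyp2c29* and −0.21 for *Cyp2c39*, and without LWT liver 4 *Cyp2c39* was at 0.02.

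**Figure D2:**
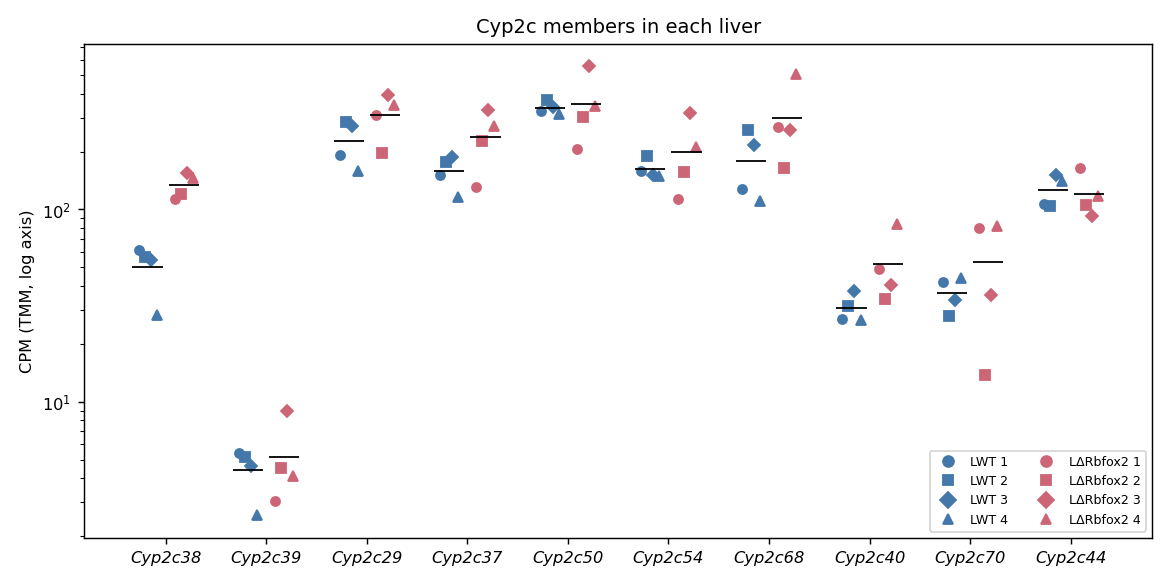
CPM of each member in each liver on a log axis, with LWT livers in blue and LΔRbfox2 livers in red, a marker shape for each replicate number and a black line at the mean of 4 livers. Only for *Cyp2c38* do all 4 LΔRbfox2 livers (114 to 154 CPM) lie above all 4 LWT livers (28.4 to 61.3 CPM).

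The ratio of a gene to its copy in the same liver does not depend on the scaling of the library. Per kb of exon, *Cyp2c38* was at 7.18, 6.93, 7.49 and 7.04 times the level of *Cyp2c39* in LWT livers 1 to 4. In LΔRbfox2 livers 1 to 4 this ratio was 23.7, 16.8, 10.9 and 22.4. The ratio was 7.16 ± 0.239 in LWT livers, including liver 4 in which both genes were low, and 18.5 ± 5.84 in LΔRbfox2 livers (SD, n = 4). It rests on few counts of *Cyp2c39*, 207, 256, 222 and 111 in LWT and 133, 291, 307 and 132 in LΔRbfox2 livers 1 to 4. Counting error is not small at such counts, so nothing is read from how close the LWT ratios lie. Against *Cyp2c29*, the ratio of *Cyp2c38* was between 0.192 and 0.34 in LWT and between 0.392 and 0.652 in LΔRbfox2 livers, again without overlap. These ratios use the contrast from which the family was chosen and are a description.

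Sums over copies do not depend on how counted reads were divided among them. They still depend on whether reads that match several genes were counted, which is not given. The summed level of *Cyp2c38* and *Cyp2c39* was 54.6 ± 16.1 CPM in LWT and 138 ± 21.3 CPM in LΔRbfox2 livers (SD, n = 4), without overlap. *Cyp2c39* added only 4.43 and 5.15 CPM to these means, so the sum largely repeats the values of *Cyp2c38* and is a description. *Cyp2c29*, *Cyp2c38* and *Cyp2c39* together were at 281 ± 72.2 CPM in LWT and 450 ± 100.2 CPM in LΔRbfox2 livers (SD, n = 4), and here the genotypes overlapped.

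*Cyp2c37*, *Cyp2c50* and *Cyp2c54* turn arachidonic acid into EETs and, for *Cyp2c37*, a hydroxy acid. *Cyp2c50* was at 325, 371, 341 and 314 CPM in LWT livers and at 207, 304, 555 and 346 CPM in LΔRbfox2 livers 1 to 4. The LWT livers were close together and the LΔRbfox2 livers spread to both sides of them. *Cyp2c54* was also highest in LΔRbfox2 liver 3 and lowest in LΔRbfox2 liver 1, at 159, 189.8, 152 and 149 CPM in LWT and 114, 156, 318 and 211 CPM in LΔRbfox2 livers. *Cyp2c37* was at 151, 177, 188 and 116 CPM in LWT and 131, 227, 329 and 272 CPM in LΔRbfox2 livers, where liver 1 lay in the LWT range and livers 2 to 4 above it. Log2 fold changes were 0.60 ± 0.29 for *Cyp2c37*, 0.30 ± 0.29 for *Cyp2c54* and 0.06 ± 0.27 for *Cyp2c50* (limma-voom standard error). Without LΔRbfox2 liver 3 they were 0.38, −0.05 and −0.27, so the sign of the estimates for *Cyp2c54* and *Cyp2c50* rests on that liver. Without LΔRbfox2 livers 3 and 4 they were 0.15, −0.29 and −0.43, and with the length and GC correction 0.22, −0.16 and −0.33.

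The ratio of *Cyp2c50* to *Cyp2c54* within a liver had little spread, unlike those to *Cyp2c37*. *Cyp2c50* was at 1.25, 1.19, 1.38 and 1.29 times the level of *Cyp2c54* per kb of exon in LWT livers and at 1.11, 1.19, 1.07 and 1.01 times in LΔRbfox2 livers. The LΔRbfox2 livers lay just under the LWT livers, with LWT 2 and LΔRbfox2 2 alike. *Cyp2c50* against *Cyp2c37* was 1.37 ± 0.234 in LWT and 0.919 ± 0.122 in LΔRbfox2 livers (SD, n = 4), without overlap, and ran from 0.796 to 1.69 over the 8 livers. *Cyp2c37* against *Cyp2c54* ran from 0.765 to 1.42, with overlap. The exons of *Cyp2c50* are counted over 2918 bases, against 1824 for its longest transcript, and with the latter the levels of *Cyp2c50* per kb would be higher in every liver alike.

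**Figure D3:**
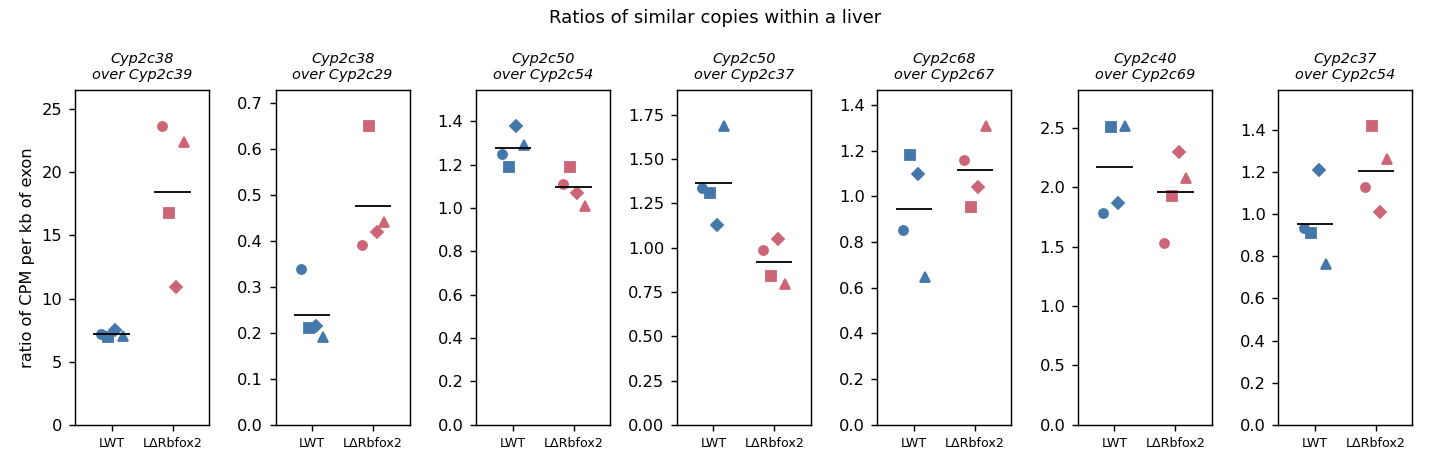
Ratio of the CPM per kb of exon of similar copies in each liver, with LWT livers in blue, LΔRbfox2 livers in red, a marker shape for each replicate number (circle 1, square 2, diamond 3, triangle 4), a black line at the mean of 4 livers, and a separate axis from 0 for each pair. *Cyp2c38* over *Cyp2c39* lies between 6.93 and 7.49 in the LWT livers and between 10.9 and 23.7 in the LΔRbfox2 livers.

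*Cyp2c68* and *Cyp2c40* form a block with the non-members *Cyp2c67* and *Cyp2c69*. *Cyp2c68* was at 128, 260.2, 216 and 111 CPM in LWT livers and at 268, 165, 259 and 506 CPM in LΔRbfox2 livers 1 to 4. *Cyp2c40*, whose enzyme makes hydroxy acids from arachidonic acid, was at 26.8, 31.4, 37.7 and 26.7 CPM in LWT livers and at 49.1, 34.1, 40.6 and 84.2 CPM in LΔRbfox2 livers. For both genes LΔRbfox2 liver 4 was the highest, LWT liver 4 the lowest and the genotypes overlapped. The log2 fold change was 0.74 ± 0.37 for *Cyp2c68* and 0.76 ± 0.27 for *Cyp2c40* (limma-voom standard error). Without LΔRbfox2 liver 4 it was 0.37 and 0.43, without LΔRbfox2 livers 3 and 4 it was 0.24 and 0.41, and with the length and GC correction 0.29 and 0.36.

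The non-members of this block had values of the same kind. *Cyp2c67* was at 151, 221, 197 and 172 CPM in LWT and 231, 174, 249 and 389 CPM in LΔRbfox2 livers 1 to 4. *Cyp2c69* was at 12.6, 10.5, 16.9 and 8.89 CPM in LWT and 26.9, 14.9, 14.8 and 33.9 CPM in LΔRbfox2 livers. LΔRbfox2 liver 4 was again the highest for both, and the log2 fold changes were 0.49 and 0.89. Summed over the 4 genes, the level was 407 ± 104 CPM in LWT and 635 ± 266 CPM in LΔRbfox2 livers (SD, n = 4), with overlap. *Cyp2c55* stayed at or under 1.52 CPM in every liver. *Cyp2c65* and *Cyp2c66* had at most 1 count in any liver, under the 3 counts taken as the floor, which covers counting error only.

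*Cyp2c70* makes muricholic acids, the bile acids typical of mice. It was at 42.1, 27.9, 34.0 and 43.8 CPM in LWT livers and at 80.6, 13.7, 36.1 and 82.1 CPM in LΔRbfox2 livers 1 to 4. LΔRbfox2 livers 1 and 4 lay above the LWT range, liver 3 within it and liver 2 under it, so that the LΔRbfox2 mean of 53.1 ± 33.9 CPM (SD, n = 4) had the widest relative spread of the members. *Cyp2c44*, an epoxygenase outside the run of genes, was at 107, 104, 152 and 139.9 CPM in LWT and 165, 106, 92.5 and 118 CPM in LΔRbfox2 livers. It was the only member with an estimate under 0, at −0.06 ± 0.22 on the log2 scale against 0.52 ± 0.50 for *Cyp2c70* (limma-voom standard error). For *Cyp2c70* it was 0.24 in limma-voom's own fit, 0.03 with the length and GC correction, 0.26 without LΔRbfox2 liver 1, 0.24 without liver 4, 0.84 without liver 2 and 0.33 without livers 3 and 4. *Cyp2c44* was at 0.09 without livers 3 and 4.

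**Figure D4:**
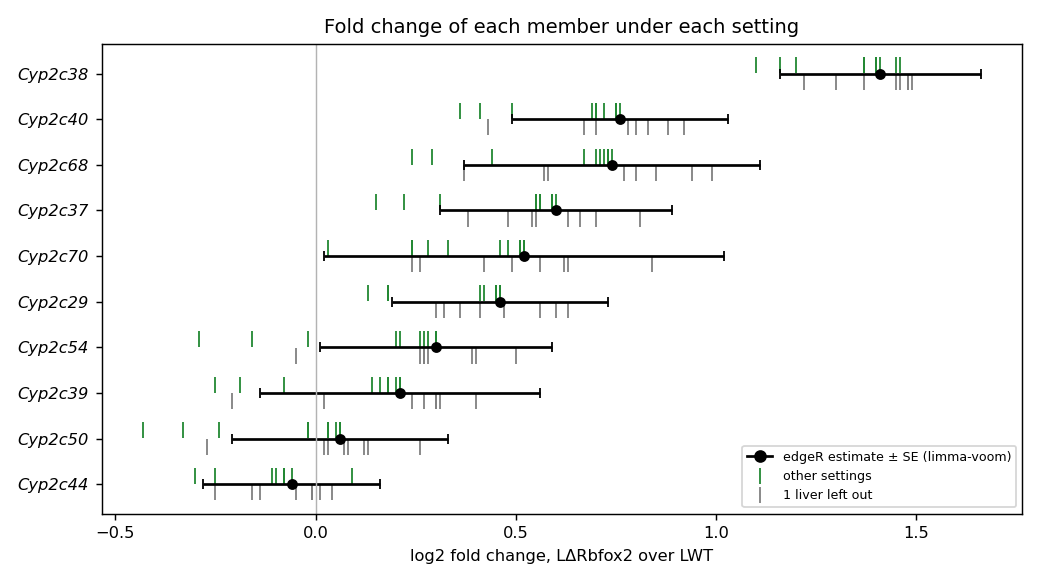
Log2 fold change of each member, LΔRbfox2 over LWT, as the edgeR estimate with a bar of 1 limma-voom standard error on each side (black), the estimates under other settings (green ticks above) and with 1 liver left out in turn (grey ticks below). *Cyp2c38* stays between 1.10 and 1.49 throughout, while the ticks of *Cyp2c54*, *Cyp2c39*, *Cyp2c50* and *Cyp2c44* lie on both sides of 0.

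Which liver was highest did not follow the genotype alone. LΔRbfox2 liver 3 was the highest of all 8 livers for 6 members, LΔRbfox2 liver 4 for 3 and LΔRbfox2 liver 1 for 1 (*Cyp2c44*), and LWT liver 4 was the lowest for 6. LΔRbfox2 liver 3 was above the LWT range for 7 members, liver 4 for 7, liver 1 for 6 and liver 2 for 2. Livers 3 and 4 are those with low TMM factors, and the part of this in the result was not tested. The coefficient of variation was larger in LΔRbfox2 than in LWT livers for 8 of the 10 members. That of *Cyp2c50* was 7.24% in LWT and 41.5% in LΔRbfox2 livers, and that of *Cyp2c54* was 11.6% and 44.3%. The exceptions were *Cyp2c38*, with 29.5% in LWT and 14.4% in LΔRbfox2 livers, and *Cyp2c29*, with 27.0% and 26.8%. Shares over all genes tested are not given for the counts of this paragraph, so none is read as a trait of the members.

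Summed over the 10 members, the level was 1198, 1507, 1450.4 and 1089.6 CPM in LWT livers and 1440.3, 1329, 2185 and 2116 CPM in LΔRbfox2 livers 1 to 4. LΔRbfox2 livers 1 and 2 lay in the LWT range and livers 3 and 4 above it. The means were 1311 ± 199.7 and 1767 ± 445 CPM (SD, n = 4), a log2 ratio of 0.43. It was 0.08 with LΔRbfox2 livers 3 and 4 left out and 0.05 after each library was corrected for exon length and GC content, both less than the spread between livers of a genotype (SD of 0.31 on the log2 scale). Without *Cyp2c38* the sum was 1261 ± 191 CPM in LWT and 1634 ± 427 CPM in LΔRbfox2 livers.

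Compared per kb of exon, the members differed in level by a wide margin. In LWT livers the order was *Cyp2c50* at 116 ± 8.38 CPM per kb, *Cyp2c68* at 104 ± 41.2, *Cyp2c54* at 90.9 ± 10.6 and *Cyp2c37* at 86.7 ± 17.5 CPM per kb (SD, n = 4), followed by *Cyp2c29* with a mean of 74.0 (range 51.6 to 93.1) and *Cyp2c44* with a mean of 58.3 (range 48.3 to 70.4). Neighbours in this order overlapped in their values over the 4 livers. A gap followed, and then came *Cyp2c70* at 18.7 ± 3.73, *Cyp2c38* at 17.5 ± 5.15 CPM per kb and *Cyp2c40* between 13.1 and 18.5 CPM per kb, of which each overlapped with the next. *Cyp2c39* was apart from all others, at 2.44 ± 0.711 CPM per kb. In LΔRbfox2 livers *Cyp2c38* was at 46.4 ± 6.69 CPM per kb, next to *Cyp2c44* at 55.8 ± 14.5 CPM per kb.

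As a share of the members' summed level per kb, *Cyp2c38* made up 4.04%, 2.91%, 2.94% and 2.05% in LWT livers 1 to 4 and 6.14%, 7.08%, 5.56% and 5.12% in LΔRbfox2 livers. It was the only member whose share did not overlap between the genotypes. This share is made from the same values as its level, on which the family was chosen, and is a description. The share of *Cyp2c50* was 20.1 ± 1.97% in LWT and 15.1 ± 4.20% in LΔRbfox2 livers, and that of *Cyp2c68* was 17.3 ± 4.32% and 21.4 ± 6.85% (SD, n = 4).

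**Figure D5:**
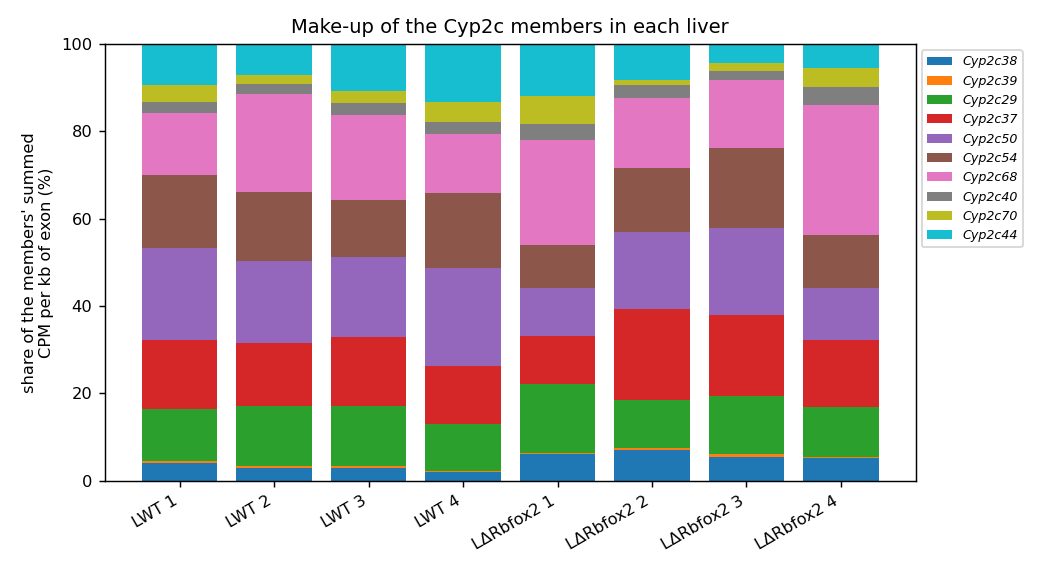
Share of each member in the members' summed CPM per kb of exon, as stacked bars that add up to 100% in each of the 8 livers. The band of *Cyp2c38* at the foot of each bar spans 2.05% to 4.04% in LWT livers and 5.12% to 7.08% in LΔRbfox2 livers.

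Similar copies had similar profiles over the livers. Among the members and the other Cyp2c genes tested, 9 pairs shared at least 15% of their 50-base windows. The root mean square difference between their log2 CPM, after the mean of each genotype was taken off, was 0.08 to 0.41 with a median of 0.22. It was 0.27 to 1.06 with a median of 0.53 for the other 69 pairs. The smallest was that of *Cyp2c50* and *Cyp2c54*. Reads that match both copies could make profiles alike, and their part was not tested.

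Promoters from RefSeq (GRCm38.p6, 250 bases before to 50 after the start site) were found for 8 of the members, and those of *Cyp2c44* and *Cyp2c54* were not. Where a gene had more than 1 entry, that nearest its annotated start was used. Over the aligned promoter windows, *Cyp2c38* and *Cyp2c39* were identical at 240 of 329 columns, or 72.95%, with gaps counted as differing. Their windows are offset against each other, which adds gaps, so this share is not comparable with that of their coding sequences. The motif TGTTTAC, the core bound by FOXA factors of the liver, was searched for on both strands. It was found in the promoters of *Cyp2c38* and *Cyp2c39* among the members, and in 3.6% of all 32851 promoters. A stretch of 60 bases around it is shown for the 3 related genes, from chr19:39463247-39463306 (minus strand), chr19:39510604-39510663 (plus strand) and chr19:39286844-39286903 (plus strand), because the motif is whole in *Cyp2c38* and *Cyp2c39* and differs at 2 bases in *Cyp2c29*. Capitals mark these 7 bases.
Cyp2c38: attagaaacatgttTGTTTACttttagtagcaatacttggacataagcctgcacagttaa
Cyp2c39: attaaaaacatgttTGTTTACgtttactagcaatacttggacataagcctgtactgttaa
Cyp2c29: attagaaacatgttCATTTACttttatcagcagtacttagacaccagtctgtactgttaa

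Searched in the same way, the half-site AGGTCA of nuclear receptors was in the promoters of *Cyp2c29* and *Cyp2c70* (16.3% of all promoters), the HNF1 half-site GTTAAT in those of *Cyp2c40* and *Cyp2c68* (7.1% of all), and the C/EBP motif TTGCNNAA in those of *Cyp2c37* and *Cyp2c40* (10.8% of all). No match of these motifs overlapped another in a member's promoter. The motif TGCATG, which RBFOX proteins bind in RNA as UGCAUG, was in 0 of the members' promoters. It occurred 1 to 3 times in the longest coding transcript of each member, and at least once in 51.6% of 21901 genes with a coding transcript. Introns, where RBFOX2 is known to act, were not searched, and a match is not a binding site.

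The 5 genes outside the family whose log2 CPM profile over the 8 livers was nearest to that of *Cyp2c38* were *Prelid2*, *2310040G24Rik*, *Gm35986*, *Defb1* and *H2-Q2*, out of 13843 genes compared. Their root mean square difference from it was between 0.28 and 0.35 on the log2 scale. *Defb1*, a beta-defensin, was at 1.05, 1.17, 0.977 and 0.668 CPM in LWT and 2.86, 1.59, 4.13 and 3.03 CPM in LΔRbfox2 livers 1 to 4. The other 4 genes were at or under 1.58 CPM in every liver. The likeness includes the difference between genotypes on which the family was chosen.

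Genes next to the family on the chromosome were examined in the same fit. Within 500 kb of the run, 12 other genes were tested, with a median log2 fold change of −0.04 and a range from −0.79 to 0.18, and 0 were higher and 1 (*Entpd1*) lower at an unadjusted *P* under 0.05. Within 500 kb of *Cyp2c44*, 17 other genes had a median of −0.11, with 2 higher (*Cutc* and *Bloc1s2*) and 0 lower. The names of these 3 genes were chosen with their values known. Of all genes tested, 7.95% were higher and 1.83% lower at this threshold.

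Genes that supply P450 enzymes with haem and electrons had a median log2 fold change of −0.02 over 14 genes, with 0 higher and 1 lower at an unadjusted *P* under 0.05. The lower gene was *Alas1*, the rate-limiting enzyme of haem synthesis, which was at 379, 866, 631 and 482 CPM in LWT livers and 100, 276, 309 and 196 CPM in LΔRbfox2 livers 1 to 4. All 4 LΔRbfox2 livers were under all LWT livers, with a log2 fold change of −1.42, and edgeR's adjusted *P* did not pass 0.05. This share is to be read beside the 1.83% of all genes tested that were lower and the 7.95% that were higher. The same holds for the counts of the other lists.

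Of 18 regulators of P450 genes, 1 was higher and 2 lower at an unadjusted *P* under 0.05, with a median of −0.24. *Nr1i2*, which encodes PXR, was at 56.0 ± 5.86 CPM in LWT and 43.9 ± 3.79 CPM in LΔRbfox2 livers (SD, n = 4), without overlap. The others, named after their values were seen, were *Bcl6* (log2 fold change 1.48), a repressor, and *Cebpb* (−0.64), a transcription factor of the C/EBP family. Of 17 tested genes outside the family that CAR and PXR induce, 3 were higher and 0 lower, beside 7.95% and 1.83% of all genes tested. The median of the 17 was 0.10, and no direction is read from so few genes. The 2 of smallest unadjusted *P* were *Sult1d1*, a sulfotransferase, at 84.0 ± 12.5 and 176 ± 84.6 CPM, and *Cyp3a11*, a major drug-metabolizing P450, at 1769.8 ± 628 and 3698 ± 1345 CPM. Both overlapped between genotypes and were highest in LΔRbfox2 livers 3 and 4. Their log2 fold changes were 1.07 and 1.06, and 0.32 and 0.58 without these livers. The third, named after its values were seen, was *Cyp3a25*, at a log2 fold change of 0.45.

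Arachidonate metabolism outside the family had 1 gene higher and 1 lower of 19 tested, with a median of −0.04. At this unadjusted *P* under 0.05, 7.95% of all genes tested were higher and 1.83% lower. *Ptgs1*, a cyclooxygenase, was at 3.77 ± 0.544 CPM in LWT and 2.93 ± 0.432 CPM in LΔRbfox2 livers, without overlap, and did not pass this threshold. The 2 that did, named after their values were seen, were *Cyp2j6*, a P450 (log2 fold change 0.46), and *Pla2g6*, a phospholipase (−0.77). Retinoid metabolism had 1 higher and 1 lower of 13, with a median of 0.02, and *Cyp26b1*, which breaks down retinoic acid, was at 2.83 ± 0.745 CPM in LWT and 1.34 ± 0.469 CPM in LΔRbfox2 livers, without overlap. The higher gene, named after its values were seen, was *Cyp26a1*, its relative, at a log2 fold change of 1.08. Bile acid synthesis had 0 higher and 0 lower of 12, with a median of 0.02. There *Acox2*, a peroxisomal oxidase, was at 128 ± 16.9 and 96.8 ± 21.2 CPM, and *Cyp7a1*, the rate-limiting enzyme, at 48.7 ± 47.4 and 109 ± 52.3 CPM (LWT and LΔRbfox2, SD, n = 4).

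Genes with higher levels in male liver had 2 higher and 0 lower of 13 tested, with a median of −0.07. They included the urinary protein gene *Mup20*, at 4508 ± 898 CPM in LWT and 8689 ± 3559 CPM in LΔRbfox2 livers, and *Ugt2b1*, a glucuronosyltransferase, at 239.9 ± 31.1 and 367 ± 115 CPM. Genes with higher levels in female liver had 2 higher and 0 lower of 9, with a median of 0.36. Both lists are small, and 7.95% of all genes tested were higher and 1.83% lower. *Cyp3a44* was at 0.685 ± 0.218 and 2.56 ± 2.88 CPM, and *Cyp3a16* at 0.273 ± 0.214 and 1.06 ± 0.683 CPM. Values of these 4 genes overlapped between the genotypes. Without LΔRbfox2 livers 3 and 4 the log2 fold change of *Mup20* was 0.44 in place of 0.95, of *Ugt2b1* 0.24 in place of 0.61, of *Cyp3a44* 0.21 in place of 1.89 and of *Cyp3a16* 0.89 in place of 1.89, and none of the 4 had an unadjusted *P* under 0.05.

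Pericentral hepatocyte genes had 0 higher and 1 lower of 18, with a median of −0.18, where 7.95% of all genes tested were higher and 1.83% lower. *Slc1a2*, a glutamate transporter, was at 92.2 ± 18.8 CPM in LWT and 41.2 ± 5.63 CPM in LΔRbfox2 livers, and *Nkd1*, a target of Wnt signalling, at 1.35 ± 0.111 and 1.03 ± 0.265 CPM, both without overlap, although *Nkd1* was at 1.28 CPM in LWT liver 1 and LΔRbfox2 liver 1 alike after rounding. Periportal genes had 1 higher and 0 lower of 14, with a median of 0.16. The gene counted as higher was *Sdhd*, named after its values were seen, at a log2 fold change of 0.77. No gene of these lists passed an adjusted *P* of 0.05 with edgeR, and *Slc1a2* did with DESeq2.

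Marker genes of other cells were summed in each liver. Hepatocyte markers (8 of 8 found) were between 50692 and 76810.3 CPM in every liver. Kupffer cell markers (6 of 6) were at 62.2 to 110.3 CPM in LWT and 36.0 to 74.1 CPM in LΔRbfox2 livers. Sinusoidal endothelial markers were at 63.6 to 81.1 and 54.5 to 72.8 CPM, stellate markers at 71.1 to 140.3 and 93.7 to 138 CPM, cholangiocyte markers at 14.7 to 25.9 and 16.6 to 61.2 CPM and lymphocyte markers at 2.88 to 4.13 and 1.83 to 4.32 CPM. Intestinal markers were at 512 to 1097 and 944 to 2584 CPM, mostly from *Apoa4*, which hepatocytes express, while *Cdx2* and *Sis* were at 0 counts in all livers. Adipocyte markers were at 4.60 to 29.4 and 8.47 to 57.0 CPM. Nearly all of this came from *Cidec* and *Fabp4*, with *Lep* at 0 counts and *Adipoq*, *Plin1* and *Retn* at no more than 3 counts in any liver. Pancreas markers were at 0.0416 to 0.235 and 0.0872 to 0.160 CPM, with *Prss2*, *Ctrb1* and *Cpa1* at 0 counts. The part of these cells in the values of the Cyp2c genes was not tested.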

How the data were processed

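RNA from 8 livers was poly(A)-enriched and sequenced as 100-base paired-end reads. The authors aligned the reads to GRCm38 with TopHat2 2.0.11, counted them per gene with featureCounts and deposited the counts as whole numbers without normalization. The strand and multi-mapping settings of the counting are not given in the sources used here. Labels gave the groups.

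Members and gene lists were chosen with earlier results of these data known. Named genes are the 10 members, the other Cyp2c genes, *Rbfox2*, in each list the 2 genes of largest and the 2 of smallest log2 fold change among tested genes without overlap (or, where none, the 2 of smallest unadjusted *P*), and the 5 genes nearest to *Cyp2c38* in profile. One gene that this rule names is not reported here. The lists cover electron donors and haem supply, regulators, CAR and PXR targets, arachidonate, retinoid and bile acid metabolism, male- and female-biased, pericentral and periportal genes, and markers of 9 cell types or tissues.

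Counts were fitted in R 4.3.3 with edgeR 4.0.16 (filterByExpr with its defaults of at least 10 counts and a total of 15, TMM, glmQLFit and glmQLFTest with genotype as the only term), and adjusted by Benjamini–Hochberg over 13856 genes. Log2 CPM used a prior count of 2. Standard errors are from limma-voom (limma 3.58.1), and DESeq2 1.42.0 was an alternative. Scripts were tested on simulated data. GENCODE M21 gave positions and transcripts and matched 45229 of 46078 identifiers, and alignments used Biopython 1.88. Coding identity stands in for protein identity, as protein sequences were not used here. Length and GC correction used lowess with a span of 0.3. Depth ran from 37482458 to 56177588 counts per liver, so that 3 counts equal 0.0468 to 0.0929 CPM, which covers counting error only.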

Additional observations from a re-analysis of the deposited data

How the results depend on the processing

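Each fold change was recomputed with other normalizations, filters, tests and livers. The use of library totals without TMM factors and the removal of LΔRbfox2 livers 3 and 4 together were chosen after seeing the data. Of the members' fold changes, 97 of 110 values from other settings kept their direction and their side of the threshold, as did 75 of 80 with 1 liver left out. The log2 fold change of *Cyp2c38* stayed between 1.10 and 1.46 under other settings and between 1.22 and 1.49 with 1 liver left out, and only DESeq2 put it past the threshold (1.40, adjusted *P* = 0.00149, against 0.0834 to 1.0 under the other alternatives). DESeq2 also put *Rbfox2* past it (−1.82), with 1 member, 9 genes in all and 1 gene of the other lists.

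Signs turned for *Cyp2c39*, *Cyp2c50* and *Cyp2c54* with the length and GC correction (−0.19, −0.33 and −0.16), with library totals (−0.08, −0.24 and −0.02) and without LΔRbfox2 livers 3 and 4 (−0.25, −0.43 and −0.29). *Cyp2c44* turned to 0.09 without both of these livers. Library totals put the median of all genes at −0.23, and the 3 negative values lie above or next to it. *Cyp2c50* was at −0.02 with limma-voom. With 1 liver left out the range was −0.21 to 0.40 for *Cyp2c39*, −0.25 to 0.04 for *Cyp2c44*, −0.27 to 0.26 for *Cyp2c50* and −0.05 to 0.50 for *Cyp2c54*. Removing LΔRbfox2 replicate 3 turned *Cyp2c39*, *Cyp2c44*, *Cyp2c50* and *Cyp2c54* (−0.21, 0.01, −0.27 and −0.05), and removing LWT replicate 3 turned *Cyp2c44* (0.04). The cause was not tested.

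The log2 ratio of the members' sum was 0.05 with the length and GC correction and 0.08 without LΔRbfox2 livers 3 and 4. Between 1 and 3 members did not overlap with 1 liver left out, namely *Cyp2c37* without LΔRbfox2 replicate 1, *Cyp2c29* and *Cyp2c40* without LΔRbfox2 replicate 2 and *Cyp2c40* without LWT replicate 3, each beside *Cyp2c38*. With fewer livers, values of any gene are less likely to overlap. Shares over all genes are not given for these settings, so none of this is read as a trait of the members. With the length of the longest transcript *Cyp2c50* was at 185 CPM per kb in LWT livers. With 50-base windows, shares found in another gene were 7.45% for *Cyp2c38*, 2.08% for *Cyp2c29*, 30.08% for *Cyp2c37*, 12.05% for *Cyp2c39*, 72.12% for *Cyp2c40*, 30.74% for *Cyp2c50*, 25.68% for *Cyp2c54* and 43.28% for *Cyp2c68*.

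Same-numbered livers came from different animals and did not deviate together (correlations of 0.127, −0.613, 0.122 and −0.514). With the replicate block the log2 fold change was 1.45 for *Cyp2c38* and −0.02 for *Cyp2c50*. As without the block, 0 genes passed an adjusted *P* of 0.05 in edgeR. Members at an unadjusted *P* under 0.05 numbered 1 with the block and 2 without it. Genes at an unadjusted *P* under 0.05 numbered 1356 in all, 1647 with DESeq2 and 335 with the replicate block.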
